A study of Mus musculus with 4 samples.

Results

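Brain fibroblasts were examined in a single-cell RNA sequencing study of experimental stroke in mice. They were taken from the deposited UMI matrices (a UMI marks 1 captured RNA molecule) as barcodes that passed a filter (500 UMIs or more, 250 genes or more, less than 20% of UMIs from mitochondrial genes) and then met conditions on 10 genes. These were a UMI in at least 3 of Dcn, Col1a1, Col1a2, Col3a1, Lum and Slc6a13, at least 3 UMIs of Dcn, Col1a1 and Col1a2 together, and no UMI of Csf1r, Cldn5, Mag or Higd1b. The rule selected 1127 of 60942 barcodes that passed the filter: 226 in Flox control 1, 680 in Flox control 2, 90 in Ms4a3 cKO 1 and 131 in Ms4a3 cKO 2. The values of those 10 genes chose the cells, so they are described here without a test.

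The study compared 2 genotypes with 2 libraries each. The Ms4a3 cKO mice are given as Htr2b ERCre; Ms4a3-Cre, in which Htr2b, a serotonin receptor gene, is targeted through the promoter of Ms4a3, a gene of bone-marrow myeloid progenitors. The controls were Htr2b flox/flox littermates, labelled Flox. Adult mice, described as male and/or female and with the strain label C57B6, received tamoxifen, a 3-day washout and then a transient occlusion of the middle cerebral artery (tMCAO), a model of ischaemic stroke in which flow to 1 hemisphere is blocked and restored. Tissue of the injured side was taken on day 3, digested with papain and DNase and captured on the BD Rhapsody platform with no enrichment of any cell type. Both groups carry the stroke and the tamoxifen, and no library without them was analysed here. Nothing in the labels ties the 2 libraries of a genotype to separate animals, so the tests measure the spread between libraries, which may be technical. Ms4a3 is thus a gene of another lineage than fibroblasts, and whether Cre was active in fibroblasts was not measured here.

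Fibroblasts of the brain lie in the membranes around it (dura, arachnoid and pia), in the stroma of the choroid plexus and along larger vessels that enter the tissue. They lay down fibrillar collagens, fibronectin and proteoglycans, and the cells of the arachnoid and pia also carry transporters and make retinoic acid. After an injury that kills tissue, collagen-producing fibroblasts multiply and build the fibrous core of the scar.

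The libraries held between 13515 and 16514 barcodes that passed the filter, with 77580518 to 105566650 UMIs in all. The fibroblasts together gave 1912323 and 4884881 UMIs in Flox control 1 and 2 and 445220 and 530446 in Ms4a3 cKO 1 and 2. Flox control 1 stood apart: its fibroblasts had a median of 9756 UMIs, against 2842.5, 2207 and 2235 in the other 3 libraries, and its median mitochondrial share was 9.77% against 7.06, 6.46 and 6.10%. Scrublet, which scores barcodes that resemble 2 cells captured together, marked 18, 9, 0 and 3 of the fibroblasts, which were kept and left out in an alternative. No fibroblast barcode was shared between libraries, and 13 barcodes of other cells were.

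Fibroblast markers were high in the selected cells as a whole, though not in every cluster of them (given further on). The 5 fibroblast markers Dcn, Col1a1, Col1a2, Col3a1 and Lum together reached 14966 to 41676 CPM (UMIs per 1000000 UMIs of the cells summed) in each library, against 38.0 to 548 CPM in all other barcodes; this follows from the rule. Genes that the rule did not use were high in these cells as well. Aldh1a2, which makes retinoic acid from retinaldehyde, had a UMI in 65.4% of fibroblasts and was 179-fold above the other barcodes in CPM. Cyp1b1, a cytochrome P450, had a UMI in 70.7% of them. Itih2, a hyaluronan-binding chain, was 286-fold above the other barcodes, Inmt 281-fold, Cemip, which degrades hyaluronan, 204-fold, and the transcription factor Tfap2b 128-fold. Because these cells were picked by correlated genes, the folds describe them and are no test. The most abundant transcripts apart from ribosomal and mitochondrial ones were Col1a2, Col1a1, Apod, Tpt1, Spp1, Eef1a1, Col3a1, Sparc, Dcn and Igfbp7.

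The rule has a threshold, and cells lay close to it on both sides. The fibroblasts with exactly 3 of the 6 required genes numbered 29, 107, 26 and 27 in Flox control 1 and 2 and Ms4a3 cKO 1 and 2, with a median of 647, 933, 2021.5 and 1865 UMIs. Just outside, 21, 83, 46 and 39 barcodes had only 2 of the 6 genes, with a median of 1177, 2099, 3398 and 3260 UMIs, and 24, 99, 8 and 13 met every other condition but held 1 UMI of Csf1r, Cldn5, Mag or Higd1b. A further 33, 179, 11 and 14 met every other condition but held 2 or more UMIs of those genes.

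Markers of other cell types were present in the fibroblasts, at levels below those of the other barcodes for some types and above them for others, and several moved between the libraries. The 7 microglial markers summed to 324 to 413 CPM, against 6673 to 13129 CPM in the other barcodes. The 8 monocyte and macrophage markers, a list that holds Fn1, which fibroblasts also make, summed to 5325 and 5517 CPM in the Flox controls and 2172 and 1314 CPM in the cKO libraries. The 6 smooth muscle markers summed to 14.6 and 210 CPM in the controls and 629 and 780 CPM in the cKO libraries, above the 1.80 and 15.7 and 43.2 and 77.8 CPM of the other barcodes. The 6 pericyte markers summed to 288 and 594 against 1303 and 713 CPM, likewise above the other barcodes, at 29.6 and 125 against 279 and 285 CPM. The 7 endothelial markers summed to 214 and 374 against 694 and 620 CPM, and to 165 and 432 against 1149 and 1295 CPM in the other barcodes. The 5 erythroid markers were at 0 UMIs in the fibroblasts of all 4 libraries. The oligodendrocyte precursor list, which holds Pdgfra and Vcan of fibroblasts, summed to 1179 and 1160 CPM against 1422 and 2355 CPM, and the astrocyte list to 943 and 705 against 795 and 1293 CPM, where the other barcodes held 218 and 497 against 455 and 717 CPM. The 6 choroid plexus markers summed to 84.2 and 736 against 1044 and 713 CPM, below the 677 and 1155 and 1955 and 2341 CPM of the other barcodes. Lyz2, a lysozyme of myeloid cells, was at 1003 and 558 CPM in the fibroblasts of the controls and 195 and 81.1 CPM in those of the cKO libraries, and the other barcodes of the same libraries held 23582 and 12843 and 5351 and 4484 CPM. The part of free RNA and of second cells in the results below was not tested, beyond the settings that leave cells out.

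Fibroblasts made up a smaller share of the barcodes in both cKO libraries than in both Flox controls. The share was 1.67% in Flox control 1 (95% Wilson interval 1.47 to 1.90), 4.12% in Flox control 2 (3.83 to 4.43), 0.589% in Ms4a3 cKO 1 (0.479 to 0.723) and 0.838% in Ms4a3 cKO 2 (0.707 to 0.994). The intervals cover counting error only. No interval of a cKO library reached that of a Flox control, and the intervals of the 2 Flox controls were far apart as well. The means were 2.89 ± 1.73% (SD, n = 2) and 0.714 ± 0.176% (SD, n = 2), a ratio of 4.06. The exact two-sided permutation test gave p = 0.33, the smallest that 2 against 2 libraries can give. A share is relative to the other cells captured: among barcodes without a UMI of the leukocyte gene Ptprc, the shares were 8.63 and 10.9% against 1.35 and 1.70%. When each barcode was first thinned to 1000 UMIs, so that the rule met all libraries at the same depth, the shares were 1.57 and 3.41% against 0.419 and 0.657% of the 13017, 14528, 14089 and 14158 barcodes that were deep enough. Mural cells, the pericytes and smooth muscle cells of vessels, numbered 30 and 127 against 388 and 449, and endothelial cells 97 and 456 against 1053 and 1031.

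**Figure D1:**
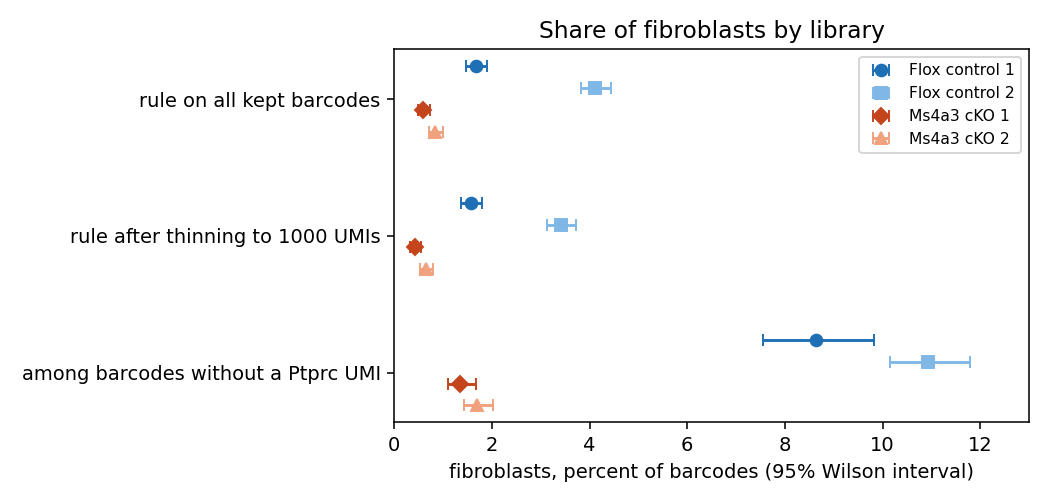
Fibroblasts as a percentage of barcodes in each of the 4 libraries (horizontal axis, linear from 0), with 95% Wilson intervals as bars, under the selection rule, after thinning each barcode to 1000 UMIs, and with barcodes that hold a Ptprc UMI left out of both counts. In each setting both Ms4a3 cKO libraries lie below both Flox controls, from 0.589 and 0.838% against 1.67 and 4.12% under the rule to 1.35 and 1.70% against 8.63 and 10.9% without Ptprc.

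The fibroblasts were not uniform. Leiden clustering of their transcriptomes gave 8 clusters, which are numbered and described by their leading genes, with no test, since the same genes built the clusters. Cluster 0 (270 cells, median 12281 UMIs) was led by Eln, the gene of elastin, at 2618 CPM against 176 CPM in the other fibroblasts, with Mfap4, a microfibril protein, the growth factor gene Igf1 and Moxd1. Cluster 3 (130 cells, median 3068 UMIs) was led by the solute carriers Slc22a6, Slc22a8, Slc13a4 and Slc6a20a and by Aldh1a1, a retinaldehyde dehydrogenase, and Bmp2, a BMP ligand. Cluster 2 (54 cells) was led by Slc47a1, a cation exporter, Slc4a10, a bicarbonate transporter, Cdh1, the epithelial cadherin, and Ccn3. Cluster 4 (120 cells, median 18423 UMIs) was led by genes of mitosis, among them Plk1, Aurkb and Ccnb1, the last with a UMI in 76.7% of its cells and in 4.17% of the other fibroblasts.

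The other 4 clusters held genes of other cell types among their leading genes. Cluster 1, the most numerous with 453 cells, had a median of only 863 UMIs and was led by Fcer1g, Ctss and Lyz2, which are genes of myeloid cells. Leading genes had to be seen in 20% of a cluster's cells. Below that limit, cluster 1 also held the choroid plexus markers, at 5729 CPM summed against 172 CPM in the other fibroblasts, a wider gap than that of the microglial markers at 789 against 315 CPM. Most of it was Ttr, transthyretin, at 16.1 and 3161 CPM in the controls and 3637 and 2253 CPM in the cKO libraries, and Enpp2, autotaxin, at 16.1 and 3020.2 against 3921 and 1432 CPM, with 1 UMI of each gene in the cluster 1 cells of Flox control 1. Scrublet scored 24 of its cells as doublets. Cluster 5 (19 cells) was led by Cd36 and Ccr2, which monocytes express, cluster 6 (60 cells) by Rgs5, Myh11 and Notch3 of mural cells together with Sox17 and Ly6c1 of endothelium, and cluster 7 (21 cells) by Aqp4 of astrocytes and Dcx of young neurons. In cluster 6 the pericyte markers, at 9092 CPM, exceeded the fibroblast markers, at 8617 CPM, and in cluster 7 the astrocyte markers did, at 7802 against 4246 CPM. All 4 clusters, with 553 of the 1127 cells, met the collagen rule, and for clusters 6 and 7 the label did not hold against the markers.

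Libraries took different shares of these clusters. Cluster 0 held 58.0 and 19.1% of the fibroblasts in the controls against 3.33 and 4.58% in the cKO libraries. Cluster 3 held 3.10 and 5.00% against 32.2 and 45.8%. Cluster 4 held 0.442 and 15.1% against 11.1 and 4.58%, with no separation of the genotypes, and cluster 6 held 0.442 and 6.03% against 8.89 and 7.63%. The genes that define clusters 0 and 3 differed between the genotypes too, so these shares are given as a description and not as a separate result, and they stand beside every comparison of the summed fibroblasts below. Their part in those comparisons was not tested beyond the values within cluster 3 given further on.

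For the comparison of genotypes, UMIs were summed over the fibroblasts of each library and tested with edgeR's quasi-likelihood test, with p-values adjusted by the Benjamini-Hochberg method over 9583 genes. No gene passed an adjusted p of 0.05 in edgeR (0.00% of genes). By comparison, 952 genes had an unadjusted p under 0.05, and the smallest adjusted p was 0.182. DESeq2 on the same sums called 109 genes higher in the cKO libraries (1.21% of the genes it adjusted) and 47 lower (0.521%). In 2064 genes both cKO libraries lay above both Flox controls (21.5% of genes) and in 1921 both lay below (20.0%). Each count of list genes below is to be read beside these shares. Values below are therefore levels, in CPM scaled by edgeR's TMM factors unless another scale is named, and a DESeq2 adjusted p is named as such; no single gene differed by edgeR's criterion. The number of calls rested on the Flox controls: edgeR called 388 genes without Flox control 1 and 1016 without Flox control 2, and 0 without either cKO library, each time with the lone library taken to vary like the others. The log2 difference between the 2 libraries of a genotype had an SD over genes of 0.93 in the Flox controls and 0.80 in the cKO libraries.

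Htr2b itself, the targeted gene, was scarcely detected in fibroblasts. It had 3 and 18 UMIs in the fibroblasts of Flox control 1 and 2, or 1.57 and 3.68 CPM before scaling, and 0 in both cKO libraries. A count of 0 allows up to 6.74 CPM in Ms4a3 cKO 1 and 5.66 CPM in Ms4a3 cKO 2, above the levels of both controls, so a difference was not detectable at this depth. Of the fibroblasts, 1.33 and 2.06% had a UMI of it in the Flox controls, against 15.3% of all other barcodes over the 4 libraries. In the cKO libraries 0 of 90 and 0 of 131 cells had one, which allows shares of up to 3.33 and 2.29%. The gene fell below the filter on low counts and has no test. Of the 16 genes of the serotonin list, Maoa and Maob, the enzymes that break serotonin down, were the only 2 abundant enough to be tested. Maoa stood at 106 and 112 CPM in the controls and 73.3 and 62.9 CPM in the cKO libraries, a small gap with an edgeR adjusted p of 0.478, and the libraries overlapped for Maob.

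Among genes without overlap and with a mean of at least 20 CPM, the 6 smallest p-values on the higher side were those of Ednrb, Aldh1a1, Mt1, Vtn, Bmp2 and Ntm. Aldh1a1, the retinaldehyde dehydrogenase that leads cluster 3, stood at 57.7 and 48.8 CPM in the controls and 381 and 555 CPM in the cKO libraries (log2 fold change 3.14, SE 0.31; edgeR adjusted p = 0.182, DESeq2 adjusted p = 2.12e-11). Ednrb, the endothelin B receptor, stood at 22.7 and 13.1 CPM in the controls and 265 and 248 CPM in the cKO libraries (log2 fold change 3.87, SE 0.36; edgeR adjusted p = 0.182, DESeq2 adjusted p = 9.73e-13). Most of the Ednrb UMIs of the cKO libraries came from few cells: 102 of 123 in Ms4a3 cKO 1 and 115 of 134 in Ms4a3 cKO 2 lay in the 8 and 10 cells of cluster 6, which holds mural and endothelial genes, at 1842 and 1870.3 CPM before scaling. Without clusters 5, 6 and 7 the log2 fold change was 2.45. Vtn, which encodes the plasma and matrix protein vitronectin and is also a pericyte marker, stood at 28.8 and 29.1 CPM in the controls and 157 and 204 CPM in the cKO libraries. In the other barcodes, scaled together with the fibroblasts, Vtn stood at 1.69 and 5.53 against 11.2 and 11.9 CPM. Bmp2 stood at 5.55 and 8.82 CPM in the controls and 79.7 and 98.1 CPM in the cKO libraries, and Ntm, a cell adhesion protein of the IgLON family, at 11.1 and 13.7 CPM in the controls and 90.5 and 86.96 CPM in the cKO libraries. The lack of overlap was a condition for naming these 6 genes. In all 6 the libraries of a genotype lay within 2-fold of each other.

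On the lower side the 6 genes were Pik3r3, Pmepa1, Col5a1, Ltbp2, Smarca1 and Edil3. Pmepa1, a target and feedback inhibitor of TGF-beta signalling, stood at 1529 and 1252 CPM in the controls and 332 and 315 CPM in the cKO libraries (log2 fold change -2.11, SE 0.29; edgeR adjusted p = 0.232, DESeq2 adjusted p = 3.69e-07). Pik3r3, a regulatory subunit of phosphoinositide 3-kinase, stood at 241 and 177 CPM in the controls and 40.9 and 42.6 CPM in the cKO libraries. Ltbp2, a microfibril protein of the latent TGF-beta binding family, stood at 78.7 and 63.1 CPM in the controls and 15.1 and 14.8 CPM in the cKO libraries. Edil3, a secreted integrin ligand, stood at 149 and 113 CPM in the controls and 17.2 and 33.3 CPM in the cKO libraries, and Smarca1, a chromatin remodeller, at 85.96 and 64.2 CPM in the controls and 12.9 and 16.7 CPM in the cKO libraries. Here too the lack of overlap was a condition for naming the 6 genes. DESeq2 called all 6, with adjusted p-values from 3.69e-07 to 0.0285.

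Fibrillar collagens, the main product of these cells, stood lower in the cKO libraries throughout. The 3 genes that the rule used are given without a test: Col1a1 stood at 12403 and 9114 CPM before scaling in the controls and 2134 and 2398 CPM in the cKO libraries, Col1a2 at 16016 and 17145 against 5505 and 5982 CPM, and Col3a1 at 9809 and 5636 against 1824 and 2155 CPM. Of the 5 other fibrillar collagen genes that could be tested, 5 had both cKO libraries below both Flox controls, where 20.0% of all genes did, and DESeq2 called 3. Their median log2 fold change was -1.73, against 0.00 over all genes, and it was -1.56 without Flox control 1. Col5a1, whose chain helps to start collagen I fibrils, stood at 362 and 412 CPM in the controls and 103 and 129.5 CPM in the cKO libraries (log2 fold change -1.73, SE 0.26; edgeR adjusted p = 0.235, DESeq2 adjusted p = 9.26e-04). Col5a2 stood at 1613 and 1402 CPM in the controls and 668 and 548 CPM in the cKO libraries and Col11a1 at 384 and 136 CPM in the controls and 51.7 and 37.01 CPM in the cKO libraries. Col27a1 stood at 123 and 81.2 against 19.4 and 35.2 CPM, and Col5a3, the scarcest, at 18.3 and 21.5 against 17.2 and 7.40 CPM. The gap was thus seen in each chain measured, and was narrow for Col5a3.

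Enzymes and chaperones that process collagen stood lower too. Of 22 tested, 15 had both cKO libraries below both controls and 1 above, where 20.0 and 21.5% of all genes did (median log2 fold change -0.52). DESeq2 called 1, Lox. Lox, the lysyl oxidase that cross-links collagen and elastin, stood at 1092 and 938 CPM in the controls and 386 and 355 CPM in the cKO libraries (DESeq2 adjusted p = 0.00181). Serpinh1, the collagen chaperone HSP47, stood at 509 and 668 CPM in the controls and 308 and 199.8 CPM in the cKO libraries. P4ha1, a prolyl hydroxylase, stood at 233 and 121 against 79.7 and 64.8 CPM, and Plod2, a lysyl hydroxylase, at 543 and 538 against 429 and 359 CPM, a small gap. Of 19 elastic-fibre and matrix glycoprotein genes, 11 were lower in both cKO libraries and 2 higher, beside the same shares of all genes (median -0.75). Eln stood at 4204 and 416 CPM in the controls and 38.8 and 70.3 CPM in the cKO libraries. Its level in Flox control 1 was about 10 times that in Flox control 2, and it leads cluster 0. Mgp, the matrix Gla protein that inhibits calcification, stood at 9842 and 2215 CPM in the controls and 1338 and 816 CPM in the cKO libraries, again highest in Flox control 1. Without that library the log2 fold change was -2.93 for Eln in place of -5.39, and -1.05 for Mgp in place of -2.48. Sparc, a collagen-binding glycoprotein, stood at 5296 and 5644 against 3385 and 3649 CPM.

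Other collagens and the basement membrane were mixed. Of 12 other interstitial collagen genes, 5 were lower in both cKO libraries and 1 higher, where 20.0 and 21.5% of all genes were (median -1.19, and -0.02 without Flox control 1). Col6a3, a chain of the beaded filaments around cells, stood at 549.6 and 420.3 CPM in the controls and 142 and 170.2 CPM in the cKO libraries (DESeq2 adjusted p = 0.00262), and Col14a1 at 141 and 47.2 CPM in the controls and 15.1 and 3.70 CPM in the cKO libraries. Col13a1, a transmembrane collagen, was the 1 that stood higher, at 18.3 and 21.3 CPM in the controls and 66.8 and 163 CPM in the cKO libraries (DESeq2 adjusted p = 0.00259). Of 17 basement membrane genes 5 were higher and 2 lower (median 0.04), a share near the background of all genes. Col15a1 stood at 141 and 213 against 375 and 525 CPM and Lama1, a laminin chain of the pial surface, at 125 and 107 against 187 and 342 CPM, while Col18a1 stood at 337 and 135 against 47.4 and 68.5 CPM. Col4a1, the main collagen of basement membranes, overlapped between the genotypes at 1438 and 1652 and 1732 and 1508 CPM.

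Small leucine-rich proteoglycans were mixed. Of 7 small leucine-rich proteoglycan genes tested, 3 were higher in both cKO libraries and 1 lower, where 21.5 and 20.0% of all genes were (median 1.13, and -0.24 without Flox control 2). Dcn, decorin, which binds collagen fibrils and was part of the rule, so that it has no test, stood at 2364 and 3343 CPM before scaling in the controls and 5060.4 and 5923 CPM in the cKO libraries. Bgn, biglycan, stood at 329 and 323 CPM in the controls and 168 and 207 CPM in the cKO libraries. Fmod, fibromodulin, and Omd, osteomodulin, stood higher but were scarce, at 2.22 and 1.23 against 8.62 and 25.9 CPM and 12.8 and 7.79 against 40.9 and 22.2 CPM.

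Genes of scar formation did not move as a group. Of 16 contractile and scar-matrix genes, 5 were higher and 4 lower in both cKO libraries, where 21.5 and 20.0% of all genes were (median -0.10). Fn1, fibronectin, stood at 4442 and 4879 CPM in the controls and 1569 and 1164 CPM in the cKO libraries (log2 fold change -1.77, SE 0.36; DESeq2 adjusted p = 4.28e-05). Cthrc1, a secreted protein of activated fibroblasts, stood at 390.4 and 438 CPM in the controls and 185 and 204 CPM in the cKO libraries, and Tgfbi at 2567 and 693 against 627 and 685 CPM. Postn, periostin, overlapped, at 652 and 168 against 77.6 and 172 CPM. Ccn2, connective tissue growth factor, stood at 341 and 797 against 1478 and 1528 CPM. Acta2, smooth muscle actin, stood at 7.21 and 118 against 373 and 499.6 CPM. Without clusters 5, 6 and 7, which hold mural genes, its log2 fold change turned from 2.76 to -1.02. For Tagln, another smooth muscle gene, it turned from 1.72 to -0.69.

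Among 22 proteases and inhibitors of the matrix, 6 were higher and 4 lower, near the 21.5 and 20.0% of all genes (median 0.14). Timp3, a matrix-bound inhibitor of metalloproteinases, stood at 897 and 363 CPM in the controls and 2779.5 and 4918 CPM in the cKO libraries (log2 fold change 2.61, SE 0.57; DESeq2 adjusted p = 1.79e-04). The other barcodes also stood higher for Timp3 in the cKO libraries, at 33.8 and 58.9 against 188 and 265 CPM when scaled together with the fibroblasts. Mmp19 stood at 33.3 and 41.4 against 103 and 94.4 CPM. Adam12, a metalloprotease of activated fibroblasts, stood at 369.9 and 268 CPM in the controls and 138 and 102 CPM in the cKO libraries, and Mmp2, gelatinase A, at 443 and 64.8 CPM in the controls and 38.8 and 40.7 CPM in the cKO libraries, with the high value in Flox control 1 alone (log2 fold change -0.71 without it, -2.66 with it). Mmp3, stromelysin, stood at 116 and 281 against 261 and 1724 CPM, and its high level in Ms4a3 cKO 2 was not shared by Ms4a3 cKO 1.

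**Figure D2:**
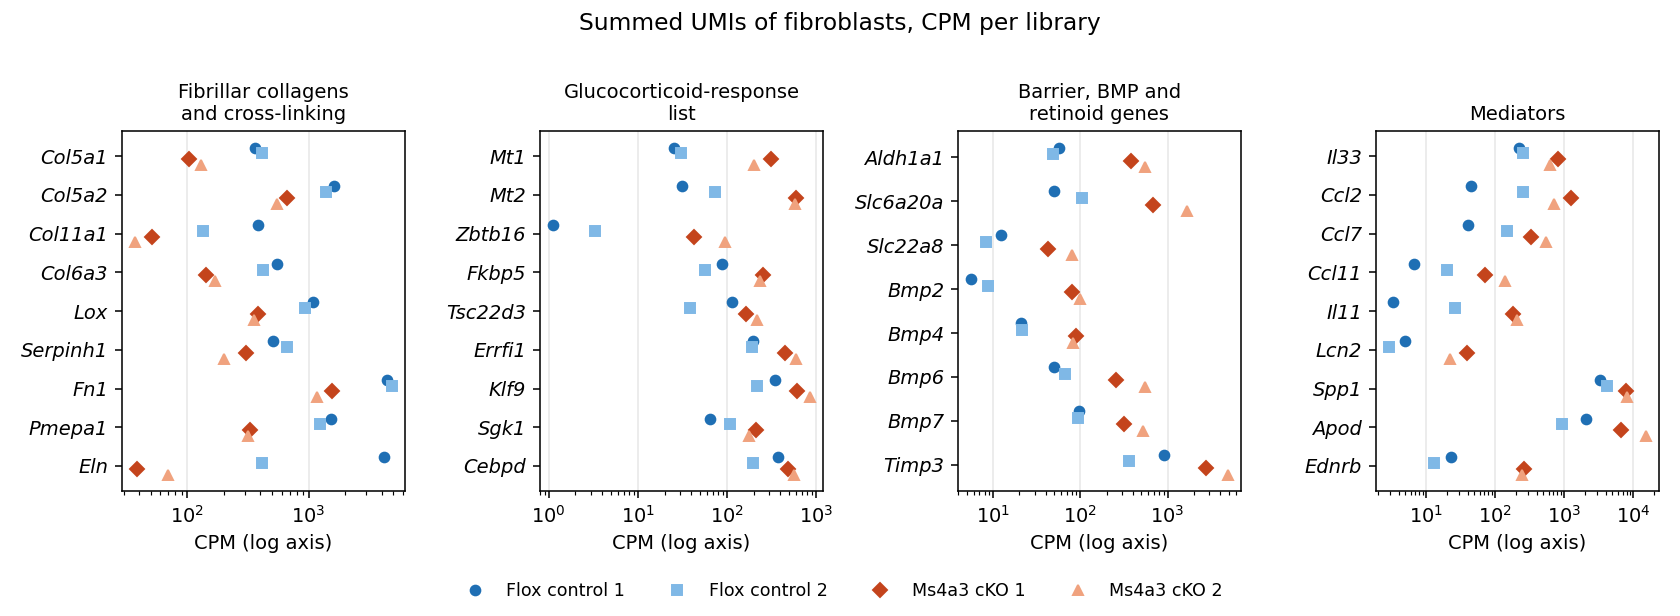
Level of selected genes in the summed fibroblasts of each library, in CPM on a log axis, in 4 panels: matrix genes, genes of the glucocorticoid-response list, barrier, BMP and retinoid genes, and secreted mediators with Ednrb. Each symbol is 1 library. In the matrix panel both Ms4a3 cKO symbols lie left of both Flox control symbols, as for Col5a1, and in the other 3 panels they lie to the right, as for Aldh1a1. The genes drawn were chosen with these values known, so this split is no test. Of the lists they come from, 12 of 15 glucocorticoid-response genes were higher in both cKO libraries. So were 8 of 21 barrier, 6 of 13 retinoic acid, 9 of 21 TGF-beta and BMP and 11 of 25 mediator genes. Cxcl12, which overlapped, and Cxcl13, which was lower, are not drawn.

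Among the lists, which were chosen with earlier results of these data known, 1 had the highest median. It was the list of genes that glucocorticoid hormones induce through their receptor, and this ranking is no independent test. Of 15 tested, 12 had both cKO libraries above both controls, where 21.5% of all genes did, and none had both below; DESeq2 called 5, and the median log2 fold change was 1.35, or 1.42 without Flox control 1. Zbtb16, a transcription factor gene, stood at 1.11 and 3.28 CPM in the controls and 43.1 and 94.4 CPM in the cKO libraries (log2 fold change 4.77, SE 0.65; edgeR adjusted p = 0.232, DESeq2 adjusted p = 9.57e-07). Fkbp5, which binds HSP90 and dampens that receptor, stood at 88.7 and 56.6 CPM in the controls and 254 and 235 CPM in the cKO libraries (DESeq2 adjusted p = 0.00618). Errfi1, an inhibitor of EGF receptor signalling, stood at 199 and 193 CPM in the controls and 448 and 594 CPM in the cKO libraries, and Klf9 at 347 and 217 against 608 and 860.4 CPM. Tsc22d3, which encodes GILZ, and Sgk1, a kinase, stood at 115 and 38.3 against 166 and 220.2 CPM and 64.3 and 108 against 211 and 179 CPM. Genes of the list also stood higher outside fibroblasts: Fkbp5 stood at 135 and 158 CPM before scaling in the other barcodes of the Flox controls and 641 and 589 CPM in those of the cKO libraries, and the test of the difference between the 2 genotype effects gave a log2 value of -0.13 (SE 0.36; edgeR adjusted p = 1.00).

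Mt1 and Mt2, metallothioneins that bind zinc and copper and that metals as well as glucocorticoids induce, belong to the same list. Mt1 stood at 25.5 and 30.5 CPM in the controls and 317 and 199.8 CPM in the cKO libraries (log2 fold change 3.19, SE 0.34; edgeR adjusted p = 0.182, DESeq2 adjusted p = 2.02e-09), and Mt2 at 31.6 and 74.2 CPM in the controls and 590.4 and 579 CPM in the cKO libraries (log2 fold change 3.44, SE 0.45; edgeR adjusted p = 0.232, DESeq2 adjusted p = 1.33e-09). The other barcodes also stood higher in the cKO libraries for Mt2, at 9.83 and 52.96 against 241 and 182 CPM before scaling, and the difference between the effects did not pass (0.58, SE 0.38; edgeR adjusted p = 1.00). For Mt1 this difference was 1.33 (SE 0.39, edgeR adjusted p = 0.353) and for Zbtb16 1.70 (SE 0.61, edgeR adjusted p = 0.612). Both were larger than for Mt2 and Fkbp5 and did not pass either. Against endothelial cells it was 2.92 for Zbtb16, 1.10 for Mt1, -0.25 for Mt2 and -0.94 for Fkbp5, and none passed. Mt1 and Mt2 are neighbours on chromosome 8, read in the same direction, and are shown because they moved together. Their promoters are given as the 250 bases before the start of each gene in RefSeq on GRCm38.p6, plus strand, chr8:94178839-94179088 for Mt1 and chr8:94172368-94172617 for Mt2; capitals mark the core of the metal response element, TGCGCNC or TGCACNC on either strand.
Mt1 promoter: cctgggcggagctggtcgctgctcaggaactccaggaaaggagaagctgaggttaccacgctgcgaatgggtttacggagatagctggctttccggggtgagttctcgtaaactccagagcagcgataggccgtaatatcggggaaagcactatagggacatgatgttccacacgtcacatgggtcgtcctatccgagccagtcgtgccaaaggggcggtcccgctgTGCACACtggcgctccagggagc
Mt2 promoter: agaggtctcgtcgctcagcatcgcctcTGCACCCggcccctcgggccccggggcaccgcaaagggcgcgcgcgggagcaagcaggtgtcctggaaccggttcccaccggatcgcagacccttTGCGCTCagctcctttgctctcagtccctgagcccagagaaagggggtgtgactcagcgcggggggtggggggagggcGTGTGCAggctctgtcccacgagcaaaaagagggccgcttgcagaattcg
The window of Mt1 holds 1 match, which starts 23 bases before the gene, and that of Mt2 holds 3, which start 223, 128 and 50 bases before it and of which the last is on the other strand. Of 32851 promoter windows of this length, 21.4% hold at least 1 match and 1.26% at least 3. With the first 50 bases of the gene added, the counts are 3 and 4, where 1.97% of windows hold at least 3. The count for Mt1, 1 or 3, thus depends on the annotated start and on where the window ends. A match is a description of the letters only.

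Some transporters of the barrier layer and some retinoid genes stood higher as well. Of 21 transporters and junction genes tested, 8 had both cKO libraries above both controls, where 21.5% of all genes did, and none below (median 0.56), and DESeq2 called 5. Leaving out Flox control 1 gave a median of 1.25, and leaving out Flox control 2 one of -0.17. Slc6a20a, an imino acid transporter, stood at 50.5 and 105 CPM in the controls and 672 and 1676 CPM in the cKO libraries (log2 fold change 3.90, SE 0.61; edgeR adjusted p = 0.235, DESeq2 adjusted p = 2.19e-09). The other barcodes also stood higher for Slc6a20a in the cKO libraries, at 2.94 and 11.7 against 45.7 and 45.2 CPM when scaled together with the fibroblasts. Slc22a8 and Slc22a6, organic anion transporters, stood at 12.2 and 8.41 against 43.1 and 79.6 CPM and 8.32 and 3.90 against 25.9 and 62.9 CPM, and Slc13a4, a sulphate transporter, at 13.3 and 10.9 against 40.9 and 141 CPM. These 4 genes lead cluster 3, and their levels moved with its share. Slc7a11, the cystine-glutamate exchanger, stood at 212 and 615 CPM in the controls and 1497 and 1526 CPM in the cKO libraries. Of 13 retinoic acid genes 6 were higher and 2 lower, where 21.5 and 20.0% of all genes were (median 0.69, from 0.16 to 1.22 over the alternatives). Besides Aldh1a1 these included Aldh1a2 at 399.8 and 1312 against 1407 and 1963 CPM and Ptgds, which binds retinoids and makes prostaglandin D, at 39.4 and 123 CPM in the controls and 429 and 402 CPM in the cKO libraries.

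Several ligands of the BMP branch of the TGF-beta family stood higher. Of 21 genes of the 2 pathways, 9 were higher and 3 lower in both cKO libraries, where 21.5 and 20.0% of all genes were (median 0.25). DESeq2 called 3, all BMP ligands. Bmp6 stood at 50.5 and 67.5 CPM in the controls and 254 and 546 CPM in the cKO libraries (log2 fold change 2.76, SE 0.43; DESeq2 adjusted p = 1.08e-05). Bmp7 stood at 97.1 and 93.3 CPM in the controls and 315 and 525 CPM in the cKO libraries (DESeq2 adjusted p = 9.06e-05) and Bmp4 at 21.1 and 21.5 CPM in the controls and 88.3 and 81.4 CPM in the cKO libraries (DESeq2 adjusted p = 0.00878). Id3, a gene that BMP signals induce, and Smad6, an inhibitor of them, stood lower, at 528 and 660.2 against 499.9 and 337 CPM and 9.98 and 11.3 against 2.15 and 5.55 CPM. Id1, a relative of Id3 in the same list, went the other way, with both cKO libraries above both controls. Tgfb2 stood at 37.7 and 36.1 against 60.3 and 44.4 CPM, and its log2 fold change turned from 0.50 to -0.95 without clusters 5, 6 and 7.

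Several secreted inflammatory mediators stood higher in the cKO libraries. Of 25 tested, 11 had both cKO libraries above both controls, where 21.5% of all genes did, and 1 below (median 0.98, and from -0.03 without Ms4a3 cKO 1 to 1.87 without Flox control 2), and DESeq2 called 6. Ccl2, which draws in monocytes, stood at 44.9 and 251 CPM in the controls and 1243 and 719.8 CPM in the cKO libraries (log2 fold change 2.72, SE 0.80; edgeR adjusted p = 0.374, DESeq2 adjusted p = 0.00835), and Ccl7, a related chemokine, at 40.5 and 148 CPM in the controls and 329.7 and 546 CPM in the cKO libraries. Il11, a cytokine of stromal cells, stood at 3.33 and 26.7 CPM in the controls and 183 and 207 CPM in the cKO libraries (DESeq2 adjusted p = 3.22e-04). Il33, an alarmin held in the nucleus, stood at 225 and 251 CPM in the controls and 808 and 625 CPM in the cKO libraries (DESeq2 adjusted p = 0.00109), and Ccl11, eotaxin, at 6.65 and 20.1 CPM in the controls and 71.1 and 139 CPM in the cKO libraries. Lcn2, lipocalin 2, stood at 4.99 and 2.87 against 38.8 and 22.2 CPM and Il6 at 2.22 and 9.64 against 23.7 and 53.7 CPM. Cxcl13 was the 1 that stood lower, at 17.2 and 15.6 CPM with 31 and 76 UMIs in the Flox controls and 0 in both cKO libraries; DESeq2 gave it no adjusted p. Cxcl12, a chemokine that holds CXCR4-bearing cells in place, overlapped at 1623 and 579.6 against 416 and 729 CPM.

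Receptors and complement were closer to the background, in which 21.5% of all genes were higher and 20.0% lower. Of 17 cytokine receptors, 6 were higher and 3 lower (median 0.10). Il6ra stood at 28.3 and 27.7 against 77.6 and 104 CPM (DESeq2 adjusted p = 0.0420). Osmr, the oncostatin M receptor, and Il1r1, the interleukin 1 receptor, differed little, at 384 and 359 against 444 and 477 CPM and 460.3 and 429 against 349 and 355 CPM. Of 9 complement genes 3 were higher and none lower. Interferon-response and MHC class I genes leaned the other way, with 8 of 23 lower and 1 higher (median -0.78, but 0.04 without Flox control 1), although DESeq2 called only the 1 that was higher. That gene was Ifit2, at 16.1 and 24.4 CPM in the controls and 138 and 133 CPM in the cKO libraries (DESeq2 adjusted p = 1.11e-05). Ifi27, another interferon-induced gene, stood at 72.6 and 31.4 against 6.46 and 14.8 CPM.

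Growth factors, transcription factors and proliferation gave few differences, set beside the 21.5% of all genes that were higher and the 20.0% that were lower. In the insulin-like growth factor axis 2 of 11 genes were higher and 3 lower. Igfbp3 stood at 6.10 and 20.5 CPM in the controls and 86.2 and 107 CPM in the cKO libraries. Igf1 stood at 715 and 64.2 against 23.7 and 33.3 CPM and H19 at 453 and 55.6 CPM with 0 UMIs in both cKO libraries, the last 2 highest in Flox control 1 and leading cluster 0. Of 26 genes of PDGF, FGF, VEGF and Wnt signalling, 5 were higher and 3 lower (median 0.03). Dkk3, a secreted protein of the Dickkopf family, stood at 1354 and 620.0 CPM in the controls and 162 and 199.8 CPM in the cKO libraries (DESeq2 adjusted p = 8.82e-05), and Pdgfra, the receptor that marks fibroblasts, at 822 and 717 against 978 and 1856 CPM. Of 28 transcription factors 5 were higher and 7 lower, with none called by either tool. Ebf1 stood at 63.2 and 67.5 against 175 and 144 CPM. Of 25 cell cycle genes 1, Ccnd1, was higher and none lower (median 0.08). Top2a, a topoisomerase of dividing cells, stood at 14.97 and 389 against 233 and 72.2 CPM and was lowest in Flox control 1, where cluster 4 held 1 cell. Of 24 immediate-early and stress genes 4 were higher and 7 lower (median 0.03), with Fos at 1174 and 1109.6 against 614 and 668 CPM. Dissociation of tissue also induces these genes. Of 19 glycolysis and hypoxia genes 4 were higher and 3 lower. Adm, adrenomedullin, stood at 29.9 and 124 against 427 and 342 CPM.

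Markers of the layers in which fibroblasts live, lists that overlap with those above, gave different counts, to be read beside the 21.5% of all genes that were higher and the 20.0% that were lower. Of 9 perivascular markers 6 were higher and 1 lower (median 0.48), with Spp1, osteopontin, at 3355 and 4188 CPM in the controls and 7778 and 8056 CPM in the cKO libraries (DESeq2 adjusted p = 0.0461). Of 8 arachnoid markers 3 were higher and none lower (median 0.85, from 0.06 without Flox control 2 to 1.73 without Flox control 1). Of 10 pial markers 2 were higher and 1 lower (median 0.24, from -1.04 without Ms4a3 cKO 2 to 0.57 without Flox control 1). Of 11 dural markers 2 were higher and 5 lower (median -0.45), with Smoc2 at 387 and 119 CPM in the controls and 71.1 and 27.8 CPM in the cKO libraries. Of 8 markers of universal and adventitial fibroblasts 4 were higher and 2 lower, with Ly6a at 52.1 and 46.1 against 249.9 and 107 CPM. Their median was 0.76, and from -0.13 to 1.24 over the alternatives. The 4 were Ly6a, Cd34, Ly6c1 and Gsn, and Ly6c1 also leads cluster 6, which holds mural and endothelial genes. The list summed to 2069 CPM before scaling in cluster 6, against 360 CPM in the other fibroblasts. The part of that cluster in these counts was not tested. Apod, apolipoprotein D and 1 of the most abundant transcripts, stood at 2041 and 937 CPM in the controls and 6569.6 and 15379.5 CPM in the cKO libraries (log2 fold change 2.88, SE 0.66; DESeq2 adjusted p = 4.34e-05).

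**Figure D3:**
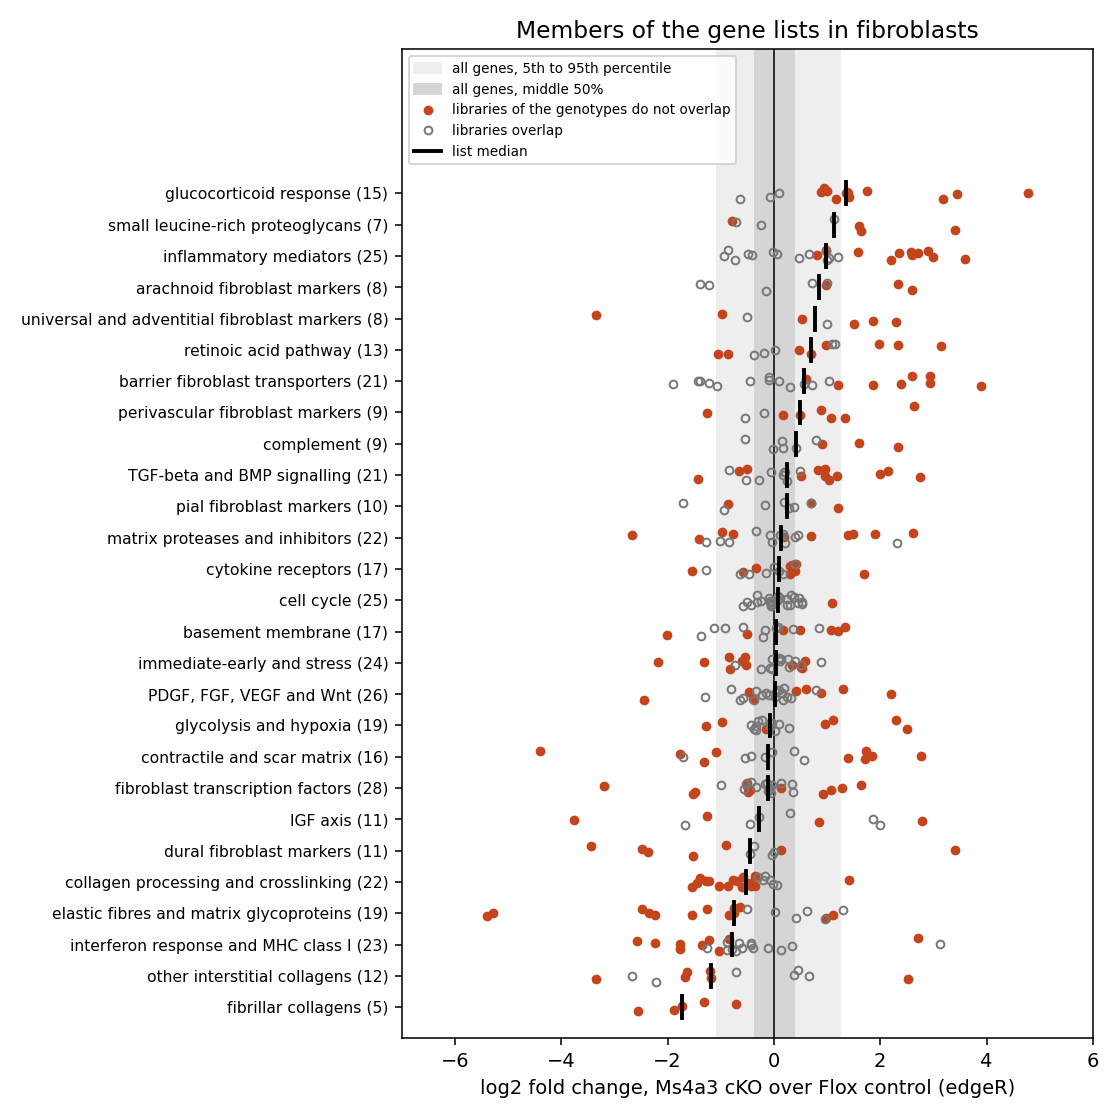
Log2 fold change of each tested gene of the lists with at least 3 tested genes (horizontal axis, Ms4a3 cKO over Flox control, edgeR), with the number of genes tested after each name and the median as a black bar; filled points are genes in which the libraries of the genotypes did not overlap, and the grey bands give the spread of all 9583 genes. Glucocorticoid-response genes lie highest (median 1.35) and fibrillar collagens lowest (median -1.73). The lists were chosen with earlier results of these data known, so their order is no independent test. Not drawn are 2 genes with no UMI in the cKO libraries, Cxcl13 and H19, which lie beyond the left end of the axis at -7.

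Cluster 3 was the 1 cluster led by fibroblast genes with at least 7 cells in every library (7, 34, 29 and 60 cells), so levels within it were set side by side, with no test. Of 5260 tested genes with at least 20 UMIs in it, leaving out its 12 leading genes and the genes of the rule, 22.6% had both cKO libraries above both Flox controls and 21.4% both below. Of 1230 such genes that separated upward in all fibroblasts, 640 did so within cluster 3, and of 1123 that separated downward, 543 did. Cluster 3 is itself part of all fibroblasts. It held 63946 of 1912323 and 222762 of 4884881 UMIs in the controls. In the cKO libraries it held 90505 of 445220 and 215202 of 530446 UMIs. The 2 sets of values thus share UMIs, and their agreement is no test. Of 13 glucocorticoid-response genes 9 were higher in both and none lower. Fkbp5 stood at 31.3 and 31.4 CPM before scaling in the controls and 376 and 186 CPM in the cKO libraries, and Tsc22d3 at 78.2 and 85.3 against 486 and 372 CPM. The control values rest on few UMIs, 2 and 7 for Fkbp5 and 5 and 19 for Tsc22d3. Other clusters were mixed. Fkbp5 stood at 39.4 and 42.3 against 74.9 and 30.2 CPM in cluster 0 and at 261 and 57.9 against 156 and 106 CPM in cluster 4. Tsc22d3 overlapped in both as well, while Mt1 and Mt2 stood higher there in both cKO libraries. In clusters 1 and 2 Fkbp5 stood higher in both cKO libraries. Cluster 0 held 3 and 6 cells of the cKO libraries, and cluster 4 held 1 cell of Flox control 1. Within cluster 3, of 13 collagen-processing genes 9 were lower and none higher, and of 4 fibrillar collagens outside the rule 3 were lower. Col5a1 stood at 344 and 130.2 against 11.05 and 27.9 CPM, on 22 and 29 against 1 and 6 UMIs. It was lower in both cKO libraries in cluster 0 as well and overlapped in clusters 1 and 4. Within cluster 3 Col1a1, a rule gene, stood at 7334 and 6226 against 2243 and 2556 CPM. Of 11 barrier transporters 2 were higher and 3 lower, and of 10 retinoic acid genes 2 were higher and 3 lower. These counts cannot be set against those in all fibroblasts, since the leading genes left out include Slc22a6, Slc22a8, Slc13a4, Slc6a20a and Aldh1a1. Aldh1a1 stood within cluster 3 at 532 and 566 CPM in the controls and 1260 and 1171 CPM in the cKO libraries. Bmp7 overlapped there, at 657 and 260.4 against 652 and 934 CPM. Of 12 mediators 5 were higher and 1 lower. Ccl2 stood at 15.6 and 17.96 against 1049.7 and 329.9 CPM, on only 1 and 4 UMIs in the controls. Pmepa1 stood at 1298 and 525 against 221 and 158 CPM, Timp3 at 2784 and 1544 against 7999.6 and 9814 CPM and Apod at 7850.4 and 9041 against 26993 and 30729 CPM. Ednrb was scarce there, at 0 in both Flox controls and 66.3 and 23.2 CPM in the cKO libraries.

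**Figure D4:**
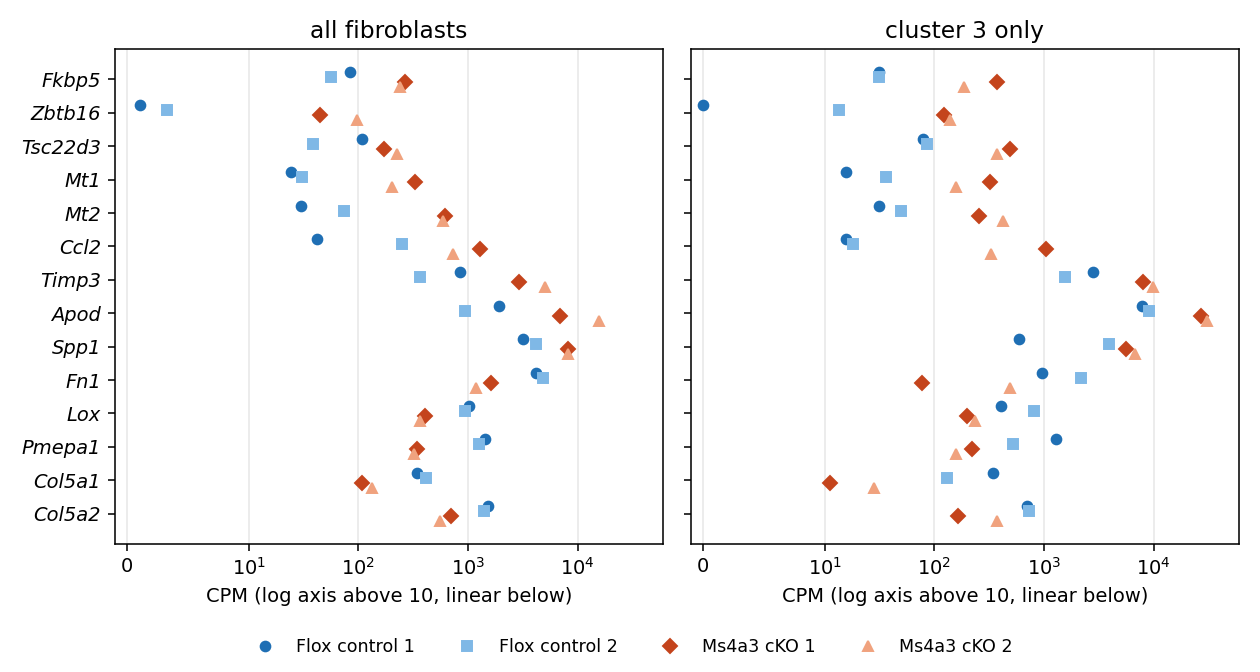
Level of selected genes in CPM before scaling (log axis above 10, linear below) in the summed UMIs of all fibroblasts (left) and of the cells of cluster 3 alone (right); each symbol is 1 library. These genes were chosen after their values were seen, so the separation of the 2 genotypes in both panels is no test. Bmp7, which overlapped within cluster 3, is not drawn. Col5a1 stood at 344 and 130.2 against 11.05 and 27.9 CPM within cluster 3, on 22, 29, 1 and 6 UMIs from 7, 34, 29 and 60 cells.

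To see whether a genotype effect differed between fibroblasts and other cells, the interaction was tested in edgeR with the library as a block. Against endothelial cells, which line the vessels next to perivascular fibroblasts, no gene of 11454 passed (0.00%), and 750 had an unadjusted p under 0.05. Slc22a8 had the smallest p-value, with levels of 12.2 and 8.27 CPM in the controls and 41.02 and 76.03 CPM in the cKO libraries in fibroblasts and 254 and 133 CPM in the controls and 92.7 and 139 CPM in the cKO libraries in endothelial cells (log2 difference of the effects 3.16, SE 0.36; edgeR adjusted p = 0.0663). Against all other barcodes, 8 of 17061 genes passed (0.0469%): Ednrb, Ifit2, P2ry1, Rassf4 and Trf with a more positive effect in fibroblasts, and Foxq1, Doc2b and Edil3 with a more negative one. Ednrb stood at 21.5 and 12.7 CPM in the controls and 244 and 224 CPM in the cKO libraries in fibroblasts and at 55.8 and 103 CPM in the controls and 67.6 and 70.2 CPM in the cKO libraries in the other barcodes (log2 difference 4.00, SE 0.47; edgeR adjusted p = 0.00979). This call rested on the cells with genes of other types, since cluster 6 held 102 of 123 and 115 of 134 Ednrb UMIs of the cKO fibroblasts: without clusters 5, 6 and 7 the difference was 2.63 (SE 0.62; edgeR adjusted p = 0.0951), while the other 7 genes still passed. The other barcodes also differed in make-up between the genotypes, as their endothelial markers given above show, and the part of that was not tested. Edil3 stood at 141 and 109 CPM in the controls and 15.9 and 30.1 CPM in the cKO libraries in fibroblasts and at 49.7 and 84.9 CPM in the controls and 64.7 and 104 CPM in the cKO libraries in the others. The BMP ligands Bmp7 and Bmp6 and fibronectin came close, with edgeR adjusted p-values of 0.0627, 0.0894 and 0.0627. For Fn1 the fibroblasts stood at 4192 and 4727 CPM in the controls and 1446 and 1051 CPM in the cKO libraries and the other barcodes at 298 and 677 CPM in the controls and 1107 and 624 CPM in the cKO libraries. For the collagen genes the same test did not pass: the log2 difference of the effects was 0.21 (SE 0.57) for Col5a1 and 0.58 (SE 0.49) for Lox, both at an edgeR adjusted p of 1.00. The other barcodes held little of either, with Col5a1 at 1.40 and 7.22 CPM before scaling in the controls and 1.37 and 0.621 CPM in the cKO libraries. They include barcodes that met the collagen conditions but held UMIs of the excluded genes. Those with 2 or more such UMIs numbered 33 and 179 in the controls and 11 and 14 in the cKO libraries. Their part in these levels was not tested, so the comparison cannot tell whether the collagen difference is particular to fibroblasts. Mural cells, the class most like fibroblasts, could not be fitted, since Flox control 1 held 30 of them.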

How the data were processed

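Single-cell 3′ RNA libraries of 4 samples, 2 per genotype, were analysed. The deposited files hold UMI counts per gene and barcode, not normalized; fastp 0.24.0, STARsolo and the mm10 build are named per the submitters' processing notes, with no text on the steps between reads and counts. Each matrix lists barcodes of 500 UMIs or more. The members and the gene lists were chosen with earlier results of these data known. Counts were summed per library over the fibroblasts and tested with edgeR 4.0.16 (TMM, filterByExpr, quasi-likelihood F test, R 4.3.3) with Benjamini-Hochberg adjustment at 0.05. The 10 genes of the rule stayed in the library sizes and out of the test. DESeq2 1.42.0 was an alternative. Clusters came from scanpy 1.11.5 under Python 3.11.15 (2000 variable genes, 20 components, 15 neighbours, Leiden resolution 0.5). Resolutions of 0.3 and 0.8 gave 6 and 12 clusters in place of 8. Tested on simulated data with known changes at the same number of libraries, the edgeR test called few of the changed genes.

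Named genes were the 6 with the smallest p in each direction among those that reached a mean of 20 CPM with no overlap between genotypes, since fewer than 5 passed; of each list up to 4 tested genes with the smallest p and 3 with the highest level; the 15 with the largest fold over other barcodes; the 10 most abundant; 4 per interaction; and 8 per cluster. Chosen after their values were seen were Col5a3, Mmp2, Acta2, Tagln, Tgfb2, Smad6, Ccl7, Il11, Il6, Tsc22d3, Sgk1, Lyz2, Ttr and Enpp2, further leading genes of clusters (Igf1, Bmp2, Aldh1a1, Slc4a10, Ccnb1, Ccr2, Dcx, Sox17, Ly6c1), and the genes set side by side within cluster 3. Replicate numbers were checked for pairing: the deviations of same-numbered libraries from their group means had a correlation of -0.26 over genes, so the numbers were not used as pairs. Alternatives changed the filters, the membership, the scaling, the tool and the libraries. Genes that share reads with near-identical copies are uncertain, and whether strand was used in counting is not known here.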

Additional observations from a re-analysis of the deposited data

Results flagged for a closer look

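In 8 genes the genotype effect in fibroblasts differed from that in all other barcodes of the same libraries by edgeR's interaction test, with an adjusted p of 0.00979 for Ednrb and 0.0469 for the other 7. The levels are in CPM, and none of the 8 passed when the test was limited to genes with a mean of at least 20 counts per library. Ednrb, the endothelin B receptor, had a log2 difference of the effects of 4.00, with fibroblasts at 21.5 and 12.7 CPM in the controls and 244 and 224 CPM in the cKO libraries and other barcodes at 55.8 and 103 CPM in the controls and 67.6 and 70.2 CPM in the cKO libraries. Most of the Ednrb UMIs in the cKO fibroblasts, 102 of 123 and 115 of 134, lay in the 8 and 10 cells of cluster 6, whose pericyte markers at 9092 CPM exceed its fibroblast markers at 8617 CPM, and without clusters 5, 6 and 7 Ednrb no longer passed (2.63, SE 0.62; edgeR adjusted p = 0.0951). The other 7 genes passed without those clusters. The other barcodes changed in make-up as well: their endothelial markers summed to 165 and 432 CPM in the controls and 1149 and 1295 CPM in the cKO libraries, and the part of this in the 8 values was not tested. Ifit2, an interferon-induced gene, had 3.39, with fibroblasts at 15.2 and 23.6 CPM in the controls and 127 and 120.3 CPM in the cKO libraries and other barcodes at 155 and 69.4 CPM in the controls and 70.9 and 52.2 CPM in the cKO libraries. P2ry1, a receptor for ADP, had 3.28, with fibroblasts at 45.5 and 39.5 CPM in the controls and 125 and 319 CPM in the cKO libraries. Rassf4 had 2.82, with fibroblasts at 7.85 and 3.38 CPM in the controls and 35.8 and 20.04 CPM in the cKO libraries, below the other barcodes in every library. Trf, transferrin, had 2.43, with fibroblasts at 15.2 and 31.8 CPM in the controls and 93.4 and 150.3 CPM in the cKO libraries and other barcodes at 253 and 492 CPM in the controls and 359.7 and 352 CPM in the cKO libraries. Foxq1, a forkhead factor, had -3.48, with fibroblasts at 159 and 164 CPM in the controls and 41.7 and 95.2 CPM in the cKO libraries and other barcodes at 8.55 and 27.99 CPM in the controls and 72.7 and 69.1 CPM in the cKO libraries, so the cKO libraries were lower in the former and higher than both controls in the latter. Edil3, an integrin ligand, had -2.82, with fibroblasts at 141 and 109 CPM in the controls and 15.9 and 30.1 CPM in the cKO libraries. Doc2b, a calcium sensor of secretion, had a fitted value of -9.10, which rests on 0 and 1 UMI in the fibroblasts of the cKO libraries and is no bound.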

How the results depend on the processing

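With edgeR, 0 genes were called between the genotypes; DESeq2 called 156, edgeR without a filter on low counts 495, and edgeR on fibroblasts thinned to 1000 UMIs 6. Leaving out each library in turn gave 0 to 1016 calls: 388 with Flox control 1 left out, 1016 with Flox control 2 left out and 0 with either cKO library left out. No calls (0) came with a replicate block for the numbers in the labels. The crossed pairing of the replicate numbers, added after seeing the data, gave 197. The same-numbered libraries share only a number. The other settings gave 0 calls. The difference in the share of fibroblasts, -2.18 percentage points, was -8.26 among barcodes without Ptprc, which has a smaller denominator. The interaction with endothelial cells had 0 calls, 22 without clusters 5, 6 and 7 (added after seeing the data), and 45 to 289 when 1 library was left out. The interaction with all other barcodes had 8 calls, 0 with a mean of at least 20 counts, 2 with DESeq2's size factors, 48 without those clusters, and 9 to 994 when 1 library was left out. The causes were not tested. Of 2496 values of 134 named genes under the alternatives, 2483 kept their direction and 13 turned, in 6 genes. Col4a1 had a log2 fold change of -0.035 with no filter, -0.28 without clusters 5, 6 and 7, and -0.056 to 0.15 with 1 library left out, below 0 for Flox control 1 and Ms4a3 cKO 1. Without those clusters Acta2 was at -1.02, Tagln at -0.69 and Tgfb2 at -0.95. Top2a was at 0.67 with the replicate block, 0.46 with the crossed pairing and -1.51 to 3.29 with 1 library left out, above 0 for Flox control 2 (3.29) and Ms4a3 cKO 2 (0.18). Maob ranged from -1.10 to 0.34 with 1 library left out, above 0 for Flox control 1 (0.30) and Ms4a3 cKO 1 (0.34). Over all settings the median of the fibrillar collagens lay between -2.16 and -1.55, that of the glucocorticoid list between 1.03 and 1.58, and that of the other interstitial collagens between -1.80 and -0.02; of 532 medians of the 28 lists, 57 turned sign. Plain library totals moved the median of all genes from 0.00 to 0.08. The small number of fibroblasts in the cKO libraries limits low genes.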
